A study of Mus musculus with 6 samples.

Results

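Integrin and laminin subunit genes were examined in whole-tumour RNA of mice given folinic acid or vehicle. Members were the rows of the deposited table whose symbols name a numbered integrin alpha or beta subunit, Itgav, or a numbered laminin alpha, beta or gamma chain. There were 32 such genes of 55357 in all, with 21 integrin subunits and 11 laminin chains, and no symbol was listed more than once. The symbol rule used no measured value. The FA group held 3 tumours of mice gavaged with folinic acid (FA), which is a folate already in reduced form, at 2 mg a day from day 8 to day 12 after tumour inoculation. The PBS group held 3 tumours of mice gavaged with phosphate-buffered saline on the same days. All 6 tumours grew under the skin of C57BL/6J mice from 250000 injected KPC1242 cells, a mouse pancreatic ductal adenocarcinoma (PDAC) line, and were taken on day 14. The model rests on this single transplanted line, and RNA of the injected cells and of the host is mixed in each library.

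Integrins are cell-surface receptors made of 1 alpha and 1 beta subunit, which tie the extracellular matrix to the actin cytoskeleton and signal in both directions. Laminins are trimers of an alpha, a beta and a gamma chain that polymerise in basement membranes, the sheets on which epithelium, endothelium and muscle rest. In pancreatic ducts the epithelium sits on such a sheet, and carcinoma cells of this tissue are known to make laminin chains and laminin-binding integrins themselves.

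Values are TPM, a transcript abundance scaled to library total and transcript length, so levels can be set side by side between genes. The table keeps no read counts, and the depth behind a value is unknown. Ductal epithelial markers were present, with all 8 of the list (keratins 7, 8, 18 and 19, Epcam, Cdh1, Sox9 and Muc1) above 1 TPM and summing to 5468 to 5884 TPM with FA, against 4954 to 5844 TPM with PBS. FA replicate 3 stood apart from the others. Its correlation with them across genes was 0.949 to 0.968, against 0.981 to 0.987 among the other 5 tumours. It held the highest value of all 6 tumours for 29.3% and the lowest for 37.3% of the 15023 genes tested, those averaging 1 TPM or more. Log2 differences that rest on this tumour are therefore given with and without it. The sample descriptions carry 1 prefix in FA and another in PBS tumours, so what the prefix marks and treatment cannot be told apart.

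Upstream sequence is shown for Itga1 and Itga3, the members whose FA and PBS values did not overlap, and for Lamb3, a laminin chain that was high in FA replicate 3. Each line gives the 250 bases before the first annotated start in the RefSeq table of build GRCm38.p6, 5′ to 3′ on the gene's strand. Capitals mark GGGCGG, the GC box bound by SP1-type factors, searched on both strands. The locations are chr13:115101965-115102214 on the minus strand for Itga1, chr11:95076715-95076964 on the minus strand for Itga3 and chr1:193301744-193301993 on the plus strand for Lamb3.
Itga1: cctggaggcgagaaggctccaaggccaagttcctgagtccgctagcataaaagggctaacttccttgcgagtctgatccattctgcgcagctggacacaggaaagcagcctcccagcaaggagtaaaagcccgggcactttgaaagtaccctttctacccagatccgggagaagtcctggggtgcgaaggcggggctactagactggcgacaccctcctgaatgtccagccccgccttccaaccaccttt
Itga3: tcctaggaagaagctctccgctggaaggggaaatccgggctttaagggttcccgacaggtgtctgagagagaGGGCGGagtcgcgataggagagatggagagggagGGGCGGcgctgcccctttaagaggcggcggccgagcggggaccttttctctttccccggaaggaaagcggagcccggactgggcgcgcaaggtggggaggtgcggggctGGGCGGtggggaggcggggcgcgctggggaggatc
Lamb3: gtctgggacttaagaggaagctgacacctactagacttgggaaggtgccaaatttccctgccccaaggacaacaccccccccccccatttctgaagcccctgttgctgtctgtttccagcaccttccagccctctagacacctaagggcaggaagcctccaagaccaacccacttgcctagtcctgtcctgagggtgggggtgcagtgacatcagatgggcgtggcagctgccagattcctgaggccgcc
The Itga3 window held 3 GC boxes and the other windows none. The RefSeq table matched 21 of the 32 members, with 24 start sites, of which 8 had a GC box (Itga3, Itga4, Itga5, Itgb1, Itgb5, Lama5 and Lamb1), against 32.7% of all 32851 promoter windows of the same length. TGANTCA, the AP-1 motif, and TATAAA, the TATA box, were in none of the 24 windows and in 6.75% and 12.4% of all windows. These matches describe letters only.

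No member passed the test between FA and PBS tumours. Of the 32 members, 27 averaged at least 1 TPM and were tested by limma on log2(TPM + 1). With Benjamini-Hochberg adjustment over all 15023 genes, 0 were higher and 0 lower at an adjusted p under 0.05, where the background was 0.0% of genes in each direction. At an unadjusted p under 0.05 there was 1 member, Itga1, beside 1.28% of all genes tested. Groups did not overlap for 2 members, Itga1 and Itga3, both higher in FA tumours, and for none in the lower direction, where 2.48% of all genes tested were separated with FA higher and 2.22% with FA lower. The mean log2 difference was above 0 for 19 of the 27 members, or 70.4%, against 50.7% of all genes tested, and its median was 0.13 over the members and 0.0016 over all genes tested. Without FA replicate 3 the medians were 0.013 for both, and 59.3% of the members had a mean above 0, against 54.9% of all genes tested. In bulk RNA, fewer cells of a type and less RNA per cell cannot be told apart.

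**Figure D1:**
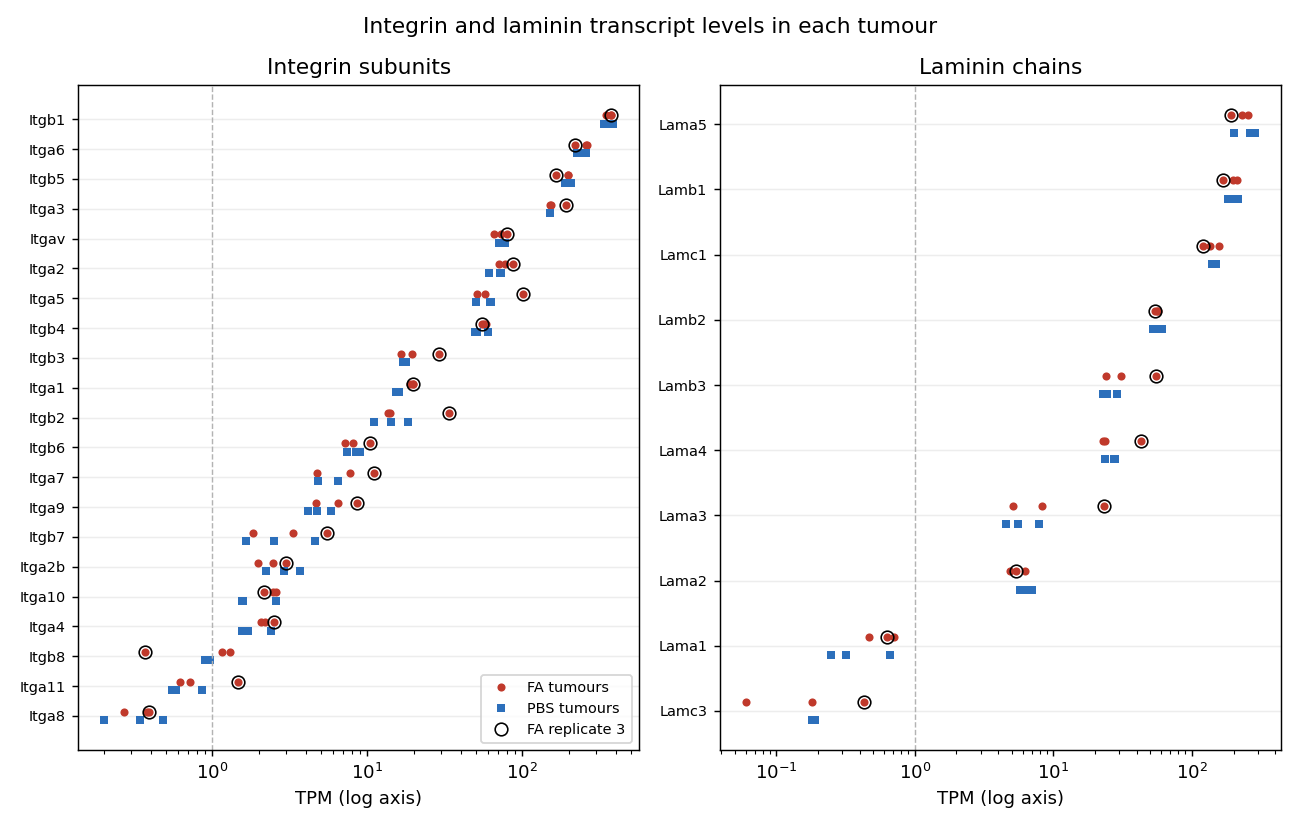
Level of integrin subunits (left) and laminin chains (right) in TPM on a log axis, 1 point per tumour, with FA tumours as circles, PBS tumours as squares and FA replicate 3 ringed. The dashed line marks 1 TPM, the mean level needed for testing. Itgb1 leads the integrins at 335 to 386 TPM and Lama5 the laminins at 192 to 286 TPM, and FA replicate 3 sits to the right of the other tumours for Lama3, Lamb3, Lama4, Itgb2 and Itga5.

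**Figure D2:**
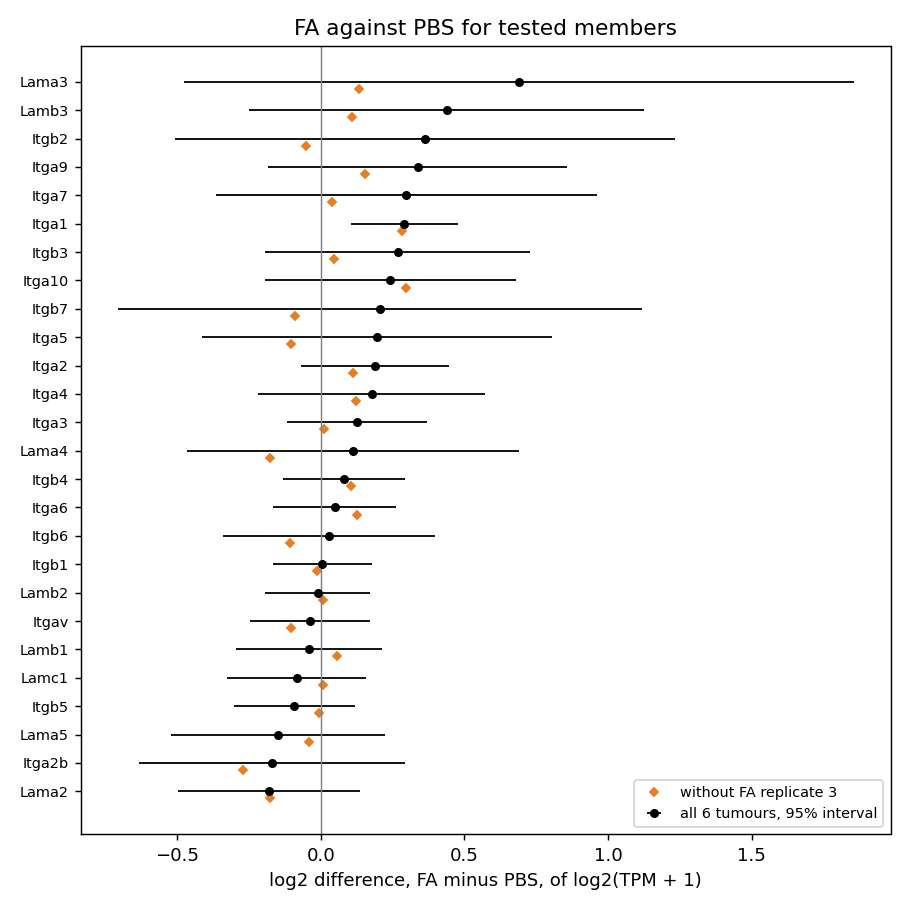
Difference between FA and PBS tumours for tested members, on the log2(TPM + 1) scale, with FA minus PBS on the horizontal axis. Black points and bars are the limma estimate and its 95% interval from all 6 tumours, and diamonds are the estimate without FA replicate 3. The interval of Itga1 lies above 0, from 0.10 to 0.48, and that of each other member shown spans 0.

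Alpha subunits of the laminin receptors were among the most abundant members. Itga6 pairs with Itgb1 or with Itgb4, the second pair forming the core of hemidesmosomes. It stood at 260, 259 and 220 TPM with FA, against 232, 256 and 226 TPM with PBS. The groups overlapped, and FA replicate 3 was the lowest tumour. Itga3, whose dimer with Itgb1 binds laminins of epithelial basement membranes, stood at 151.50, 152.05 and 192.53 TPM with FA, against 150.95, 150.46 and 149.97 TPM with PBS. All FA values of Itga3 lay above all PBS values, but 2 of them were within 2 TPM of the PBS range, and the distance between the means came from FA replicate 3. Its log2 difference was 0.13 ± 0.10 (SE; unadjusted p = 0.257, adjusted p = 1.0, limma), and 0.012 without that tumour. After median-ratio rescaling of the columns the groups of Itga3 overlapped. Itga7, the muscle laminin receptor subunit, stood at 4.72, 7.71 and 11.09 TPM with FA, against 6.50, 6.44 and 4.81 TPM with PBS, with FA replicate 3 highest. Its log2 difference was 0.30 ± 0.28, and 0.039 without that tumour. All 12 skeletal muscle markers were also highest in FA replicate 3, their summed level running from 14.96 to 1522 TPM in FA tumours and from 17.63 to 219.61 TPM with PBS. Myh1, Myh4, Pvalb and Ckm, genes of fast muscle fibres, were at 0 in FA replicate 1 and PBS replicate 2. In FA replicates 1 and 2 the muscle sum was 14.96 and 179.03 TPM, with Itga7 at 4.72 and 7.71 TPM. In PBS replicates 1, 2 and 3 the sum was 219.61, 17.63 and 158.68 TPM, with Itga7 at 6.50, 6.44 and 4.81 TPM. The part of muscle in the Itga7 value was not tested.

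Among alpha subunits of collagen receptors, Itga1 was the member whose groups were most clearly separated. Itga1 (ENSMUSG00000042284) pairs with Itgb1 to bind basement membrane and fibrillar collagens. It stood at 19.81, 18.91 and 19.79 TPM with FA, against 15.95, 15.33 and 15.97 TPM with PBS. Every FA value was above every PBS value, with little spread within either group (19.5 ± 0.514 TPM with FA, against 15.75 ± 0.364 TPM with PBS; SD, n = 3 each). The log2 difference was 0.29 ± 0.08, with an interval from 0.10 to 0.48, an unadjusted p = 0.00804 and an adjusted p = 1.0 (limma), so it did not pass. FA replicate 3 did not set this value, which was 0.28 without it.

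Reads of Itga1 may be shared with another gene model. In the GENCODE M21 annotation, which need not be the one behind the table, 3.68% of its exonic bases are shared on the same strand with the gene model Gm49395. That model stood at 4.89, 1.66 and 5.97 TPM with FA, against 2.43, 5.39 and 2.06 TPM with PBS, its groups overlapping. Adding it to Itga1 gave 24.70, 20.57 and 25.76 TPM with FA, against 18.38, 20.72 and 18.03 TPM with PBS. The sums of the groups overlapped, with a log2 difference of 0.30 ± 0.11 (unadjusted p = 0.0358, adjusted p = 1.0, limma). The sum adds the whole level of Gm49395 and not its shared bases alone, so it cannot tell how many reads were shared. This sum was chosen after seeing the data.

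Itga2, another collagen receptor subunit, is the gene next to Itga1 in the RefSeq gene order. It stood at 77.2, 70.8 and 86.6 TPM with FA, against 71.5, 73.2 and 60.6 TPM with PBS. FA replicate 2 lay below both PBS replicate 1 and PBS replicate 2, so the groups overlapped. Its log2 difference was 0.19 ± 0.11 with an interval from -0.07 to 0.45, and 0.11 without FA replicate 3. Itga10, a collagen receptor subunit of cartilage, averaged 2.40 ± 0.217 TPM with FA, against 1.90 ± 0.586 TPM with PBS, and shares 33.5% of its exonic bases with the same-strand model Gm42957, which was at 0.11 TPM or less in every tumour. Itga11, a fibroblast subunit, was at 0.62 to 1.47 TPM with FA, against 0.55 to 0.86 TPM with PBS, and was not tested.

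Subunits of receptors for the Arg-Gly-Asp (RGD) motif included 1 member that was raised in a single tumour. Itga5, the classical fibronectin receptor subunit, stood at 50.7, 57.6 and 101 TPM with FA, against 63.1, 50.1 and 61.9 TPM with PBS. FA replicate 3 was the highest, and the other FA tumours lay inside the PBS range. The log2 difference was 0.20 ± 0.26, and -0.10 without FA replicate 3. Itgav, the shared partner of Itgb3, Itgb5, Itgb6 and Itgb8, stood at 72.6, 65.6 and 79.3 TPM with FA, against 70.8, 76.9 and 74.9 TPM with PBS. The FA values spanned the PBS values on both sides, and the interval of the log2 difference ran from -0.24 to 0.17. Itga2b, the platelet subunit, averaged 2.48 ± 0.50 TPM with FA, against 2.93 ± 0.726 TPM with PBS. Of 8 platelet and megakaryocyte markers 2, Pf4 and Ppbp, were above the 1 TPM filter, and the list summed to 46.73 to 127 TPM with FA, against 41.04 to 87.42 TPM with PBS, without following Itga2b from tumour to tumour. Itga8, a subunit of mesenchymal cells, was at 0.27 to 0.39 TPM with FA, against 0.20 to 0.48 TPM with PBS, and was not tested. Itga4 and Itga9, which bind VCAM1, osteopontin and fibronectin splice forms, averaged 2.24 ± 0.225 and 6.60 ± 1.95 TPM with FA, against 1.88 ± 0.437 and 4.92 ± 0.876 TPM with PBS, with both highest in FA replicate 3. The log2 differences were 0.18 ± 0.17 for Itga4 and 0.34 ± 0.22 for Itga9, and without that tumour they were 0.12 and 0.15.

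Beta subunits were dominated by Itgb1, the common partner of most alpha subunits. Itgb1 stood at 373, 344 and 372 TPM with FA, against 386, 335 and 364 TPM with PBS. It was the most abundant member, and the interval of its log2 difference ran from -0.17 to 0.18. Itgb1 made up 53.4% to 55.9% of summed beta-subunit TPM with FA, against 52.8% to 57.3% with PBS. Itgb5, a vitronectin receptor subunit, followed at 196, 197 and 164 TPM with FA, against 187, 200 and 205 TPM with PBS. FA replicate 3 was the lowest tumour for Itgb5, and without it the log2 difference was -0.0060, against -0.09 ± 0.09 with all tumours.

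Itgb4, the hemidesmosomal partner of Itga6, stood at 56.7, 57.8 and 54.6 TPM with FA, against 49.7, 59.7 and 50.7 TPM with PBS. The FA values lay inside the PBS range. Itga6 was 4.03 to 4.59 times as abundant as Itgb4 with FA, against 4.29 to 4.66 times in PBS tumours, a ratio of levels between genes. Itgb3, a subunit of endothelium, platelets and myeloid cells, stood at 16.5, 19.5 and 28.9 TPM with FA, against 17.8, 17.1 and 17.0 TPM with PBS. FA replicate 3 was above all others, and FA replicate 1 below all PBS tumours. The log2 difference of Itgb3 was 0.27 ± 0.19, and 0.048 without FA replicate 3. Itgb2, the leukocyte subunit, stood at 13.98, 13.51 and 33.79 TPM with FA, against 18.43, 11.02 and 14.21 TPM with PBS. Its log2 difference of 0.36 ± 0.36 became -0.050 without FA replicate 3.

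The remaining beta subunits were lower. Itgb6, an epithelial activator of latent TGF-beta, averaged 8.53 ± 1.68 TPM with FA, against 8.26 ± 0.785 TPM with PBS. Itgb7, a lymphocyte homing subunit, averaged 3.55 ± 1.84 and 2.92 ± 1.54 TPM in the same order, with a spread within each group larger than the distance between them. Its log2 difference of 0.21 ± 0.38 became -0.090 without FA replicate 3. Itgb8, a second TGF-beta activator, was at 1.15, 1.31 and 0.37 TPM with FA, against 0.97, 0.90 and 0.90 TPM with PBS, and averaged too little to be tested. FA replicate 3 was the lowest tumour for Itgb8.

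Laminin alpha transcripts were mostly Lama5, the long chain of mature epithelial and endothelial basement membranes. Lama5 stood at 253, 229 and 192 TPM with FA, against 202, 286 and 263 TPM with PBS. The groups overlapped, with FA replicate 3 and PBS replicate 1 the lowest, and the log2 difference was -0.15 ± 0.16, and -0.040 without FA replicate 3. Lama4, a chain of vessel walls and other mesodermal basement membranes, stood at 22.7, 23.5 and 42.8 TPM with FA, against 27.9, 23.4 and 27.5 TPM with PBS. Lama4 was highest in FA replicate 3, and its log2 difference of 0.11 ± 0.24 became -0.18 without that tumour. Lama2, the muscle and nerve chain, averaged 5.49 ± 0.688 TPM with FA, against 6.35 ± 0.643 TPM with PBS, and was not highest in FA replicate 3, where it stood at 5.42 TPM, although muscle markers were. Schwann cell and nerve markers, for which 5 of 6 were tested and none was highest there, summed to 48.76 to 59.47 TPM with FA, against 52.70 to 77.59 TPM with PBS. Lama1, an early embryonic chain, was at 0.47 to 0.71 TPM with FA, against 0.25 to 0.66 TPM with PBS, and was not tested.

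Lama3 and Lamb3 are chains of laminin-332, the anchoring laminin of skin and other lining epithelia. Lama3 (ENSMUSG00000024421) stood at 5.12, 8.33 and 23.14 TPM with FA, against 5.60, 7.89 and 4.59 TPM with PBS. Lamb3 (ENSMUSG00000026639) stood at 24.1, 30.8 and 55.2 TPM with FA, against 22.7, 29.1 and 24.2 TPM with PBS. Both chains were highest in FA replicate 3, at 4.13 and 2.28 times the median of the other tumours for Lama3 and Lamb3. The remaining FA tumours overlapped with the PBS tumours for each chain. The log2 differences were 0.69 ± 0.49 for Lama3, with an interval from -0.47 to 1.86, and 0.44 ± 0.29 for Lamb3, with an interval from -0.25 to 1.13. Without FA replicate 3 they were 0.13 and 0.11.

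Lamb1 and Lamc1, the chains common to most laminins, did not share this pattern. Lamb1, a beta chain, stood at 213, 198 and 168 TPM with FA, against 196, 183 and 214 TPM with PBS. Lamc1, a gamma chain, stood at 156, 135 and 120 TPM with FA, against 143, 149 and 141 TPM with PBS. Both were lowest in FA replicate 3, and their log2 differences were -0.04 ± 0.11 and -0.08 ± 0.10. Without that tumour they were 0.056 and 0.0079. Lamb2, a chain of vessel and neuromuscular basement membranes, was among the steadiest members, at 56.7, 55.9 and 54.0 TPM with FA, against 52.3, 60.4 and 55.3 TPM with PBS, the FA values lying inside the PBS range. Lamc3 was at 0.06 to 0.43 TPM with FA, against 0.18 to 0.19 TPM with PBS, and was not tested.

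As shares of their class, Lama3 was 1.79%, 3.12% and 8.77% of summed laminin alpha TPM with FA, against 2.31%, 2.43% and 1.52% with PBS. Lamb3 was 8.18%, 10.8% and 19.9% of laminin beta TPM with FA, against 8.37%, 10.7% and 8.25% with PBS. FA replicates 1 and 2 and the PBS tumours had a similar make-up, with Lama5 at 83.5% to 88.4% of alpha chains and Lamb1 at 67.2% to 72.9% of beta chains. FA replicate 3 had a lower share of both, with Lama5 at 72.7% and Lamb1 at 60.6%.

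**Figure D3:**
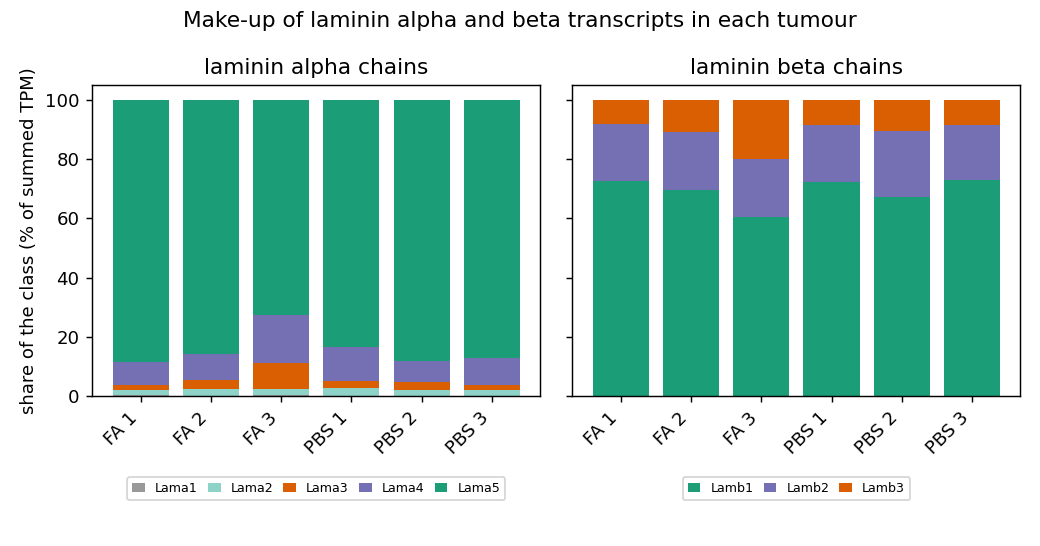
Share of each laminin alpha and beta chain in the summed TPM of its class, in percent, with 1 bar per tumour and FA tumours left of PBS tumours. Lama3 and Lamb3 are drawn in orange. FA replicate 3 has the largest orange part in both classes, at 8.77% and 19.9%.

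Spread between tumours was compared within each group. The coefficient of variation (SD over mean) had a median of 13.8% over the 27 tested members with FA, against 10.1% with PBS. Over all genes tested the medians were 13.5% with FA and 8.42% with PBS. The coefficient was larger in FA for 19 of the 27 members, or 70.4%, near the 70.0% of all genes tested. Over all 6 tumours the members' median was 15.4%, against 11.9% for all genes tested, and without FA replicate 3 it was 10.8%, against 8.74%. FA replicate 3 held the highest value for 15 of the 27 members, or 55.6%, where the background was 29.3%, and the lowest for 5, or 18.5%, where the background was 37.3%. The members lowest there were Itga6, Itgb5, Lama5, Lamb1 and Lamc1.

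Markers of other cells were also high in FA replicate 3. Of the fibroblast list 9 of 10 were highest there, and the list summed to 2460 to 7335 TPM with FA, against 2395 to 4192 TPM with PBS. All 10 endothelial markers were highest there, with sums of 116 to 408 TPM with FA, against 126 to 192 TPM with PBS. All 9 tested leukocyte and macrophage markers of 10 were highest there, with sums of 704 to 1485 TPM with FA, against 727 to 927 TPM with PBS. Of the smooth muscle and pericyte list 5 of 6 were highest there, with sums of 101 to 362 TPM with FA, against 74.50 to 155 TPM with PBS. Of the ductal list 3 of 8 (Krt8, Krt19 and Epcam) were highest there and 3 were lowest. Those highest were Krt8 at 1908 TPM, Krt19 at 1312 TPM and Epcam at 111 TPM, against PBS means of 1516, 1115.5 and 42.28 TPM. Those lowest were Muc1 at 238 TPM, Cdh1 at 253 TPM and Sox9 at 33.88 TPM, against PBS means of 363, 321 and 45.4 TPM. No marker of these lists was at 0 in any tumour. Itga5, Itgb2, Itgb3, Lama4, Lama3 and Lamb3 were high in the same tumour, and the part of these cells in their values was not tested. Skin keratinocytes make laminin-332, and of 8 keratinocyte markers 2 were above the filter, Krt14 at 6.59 TPM in FA replicate 3 and 1.69 to 2.94 TPM in the other tumours, and Krt10 at 6.68 TPM there and 7.47 to 8.62 TPM elsewhere. Krt5 was at 0 in all 6 tumours, and the list summed to 10.54 to 14.03 TPM with FA, against 10.61 to 11.13 TPM with PBS.

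**Figure D4:**
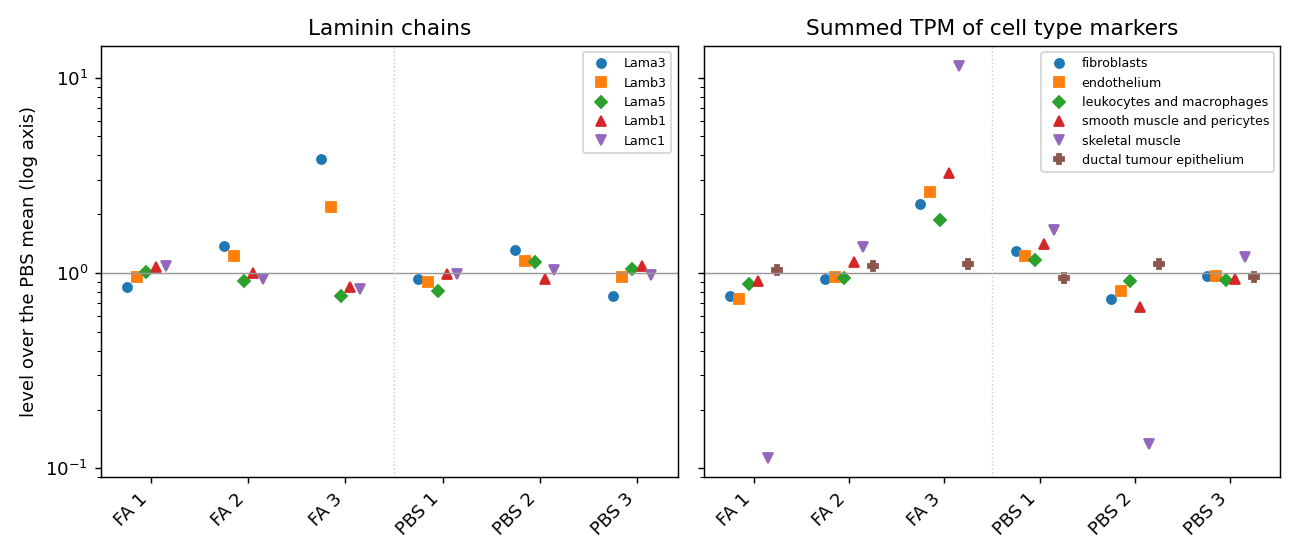
Level of 5 laminin chains (left) and summed level of 6 cell type marker lists (right) in each tumour, divided by the mean of the PBS tumours, on a log axis, with FA tumours left of PBS tumours. In FA replicate 3 Lama3 is at 3.84 and Lamb3 at 2.18 times the PBS mean, beside 2.26 for fibroblast, 2.60 for endothelial and 11.5 for skeletal muscle markers, while the summed ductal markers, mostly keratins, are at 1.12.

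Genes that act with integrins inside the cell did not pass the test. Of 25 focal adhesion and integrin activation genes, all tested, 0 were called in either direction. In this list 19 had a mean above 0, against 50.7% of all genes tested, and the median log2 difference was 0.053. FA replicate 3 was the highest tumour for 14 of the 25, against 29.3% of all genes tested. Without that tumour the median was 0.013, the same as over all genes tested. Groups did not overlap for 3 of the 25, with Actn1 and Vcl higher and Src lower in FA, where 2.48% of all genes tested were separated with FA higher and 2.22% with FA lower. Alpha-actinin 1 (Actn1), an actin crosslinker of adhesion sites, stood at 401, 424 and 460 TPM with FA, against 390, 370 and 394 TPM with PBS, a log2 difference of 0.15 ± 0.07, and 0.10 without FA replicate 3. Vinculin (Vcl), which strengthens the link from talin to actin, stood at 147, 142 and 143 TPM with FA, against 138, 125 and 140 TPM with PBS. The leukocyte kindlin gene Fermt3 stood at 8.21, 9.24 and 16.88 TPM with FA, against 9.46, 7.87 and 8.25 TPM with PBS. FA replicate 3 was the highest tumour, and the log2 difference of Fermt3 was 0.32 ± 0.25 with it and 0.031 without it. The adaptor gene Lims2 averaged 7.42 ± 0.595 TPM with FA, against 6.63 ± 0.717 TPM with PBS. Src, an adhesion kinase named here after its values were seen, was lower in each FA tumour, at 58.7, 60.3 and 59.7 TPM with FA, against 60.8, 60.5 and 62.1 TPM with PBS, where all values lay within 4 TPM of each other.

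Basement membrane partners of laminin were described by 17 genes, of which 13 were tested, 0 were called and 10 had a mean above 0, with a median log2 difference of 0.17. Without FA replicate 3 that median was 0.040, and 9 of the 13 were highest in that tumour. Over all genes tested, 50.7% had a mean above 0 and 29.3% were highest in FA replicate 3. The type IV collagen gene Col4a1 stood at 378, 388 and 492 TPM with FA, against 385, 329 and 362 TPM with PBS. The nidogens, which bridge laminin and type IV collagen, averaged 123 ± 16.2 TPM (Nid1) and 24.5 ± 7.48 TPM (Nid2) with FA, against 109 ± 14.3 and 18.8 ± 4.61 TPM with PBS. Both nidogens and Col4a1 were highest in FA replicate 3, and their log2 differences without it were 0.077 for Nid1, 0.14 for Nid2 and 0.098 for Col4a1, against 0.17, 0.36 and 0.22 with it. Col4a5, an epithelial type IV chain gene, was at 24.3, 21.3 and 11.1 TPM with FA, against 24.9, 21.9 and 23.0 TPM with PBS, with FA replicate 3 lowest. Its log2 difference was -0.35 ± 0.27, and -0.027 without that tumour.

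Of 9 hemidesmosome genes and other laminin receptors, 8 were tested and 0 were called. In this list 3 had a mean above 0, against 50.7% of all genes tested, and the median log2 difference was -0.032. FA replicate 3 was the highest tumour for 2 of the 8, against 29.3% of all genes tested. Without that tumour the median was 0.011. Plectin (Plec), which ties Itgb4 to keratin filaments, stood at 82.9, 93.5 and 98.5 TPM with FA, against 79.9, 77.3 and 80.8 TPM with PBS. All FA values of Plec lay above all PBS values, with a log2 difference of 0.20 ± 0.08, an unadjusted p = 0.0414 and an adjusted p = 1.0 (limma). The difference was 0.15 without FA replicate 3. Of the 8 tested genes, Plec was the 1 with separated groups and the 1 with an unadjusted p under 0.05 (limma). Over all genes tested, 2.48% were separated with FA higher and 1.28% had an unadjusted p under 0.05. Dystonin (Dst), the other cytoskeletal linker of hemidesmosomes, was at 72.5 ± 6.35 TPM with FA, against 76.6 ± 2.16 TPM with PBS, the syndecan gene Sdc4 at 232 ± 32.8 and 250 ± 16.8 TPM, and Rpsa at 2689 ± 92.0 and 2756 ± 97.9 TPM. Col17a1, the transmembrane collagen of hemidesmosomes, averaged 0.20 ± 0.07 TPM with FA, against 0.323 ± 0.0757 TPM with PBS.

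Of 18 symbols for other integrin ligands and TGF-beta carriers, 16 were matched and 15 tested, and 0 were called. In this list 9 had a mean above 0, against 50.7% of all genes tested, and the median log2 difference was 0.0245. Without FA replicate 3 the median was -0.078. Osteopontin (Spp1), a ligand of Itgav, Itga4 and Itga9 receptors, stood at 13010, 11246 and 6930 TPM with FA, against 12282, 13190 and 12740 TPM with PBS, with FA replicate 3 lowest. Its log2 difference was -0.34 ± 0.22, and -0.074 without that tumour. Fibronectin (Fn1), the main ligand of Itga5, stood at 1392, 1069 and 1142 TPM with FA, against 1347, 1265 and 1280 TPM with PBS. Of the 15 tested ligands and carriers, 8 were highest in FA replicate 3, against 29.3% of all genes tested. Among them were the matrix ligand genes Tnc at 421 TPM and Thbs1 at 163 TPM. In the other tumours these stood at 141 to 229 and 87.14 to 131 TPM. Vcam1, Ltbp1, Ccn2 and Icam1 were lowest in FA replicate 3, as Spp1 was. Vcam1 was at 183 TPM there, against 337 to 454 TPM in the other tumours. Tnc, Thbs1, Vcam1, Ltbp1, Ccn2 and Icam1 were named after their values were seen. The fibrillin gene Fbn1 stood at 31.2, 31.6 and 61.2 TPM with FA, against 34.3, 24.1 and 28.8 TPM with PBS. Lrrc32, an anchor of latent TGF-beta, averaged 15.1 ± 4.01 TPM with FA, against 12.5 ± 1.91 TPM with PBS. Both were highest in FA replicate 3, and without it the log2 difference was 0.12 for Fbn1 and 0.034 for Lrrc32, against 0.44 ± 0.27 and 0.23 ± 0.19 with it.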

How the data were processed

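RNA of 6 subcutaneous KPC1242 tumours was sequenced from stranded total RNA libraries, per the labels' protocols. The authors deposited TPM for 55357 genes, rounded to 2 decimals. FastQC, STAR, featureCounts and RSEM are named in the submitters' processing notes. Tool versions and roles, genome build and gene annotation are not given in the labels or files used here. Nothing in the labels says that tumours came from separate mice, so p-values measure the spread between these 6 samples, which may be technical. TPM keeps no depth.

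Columns were matched through sample descriptions. Values of 1 member are not reported here. The symbol rule itself used no measured value, but the rule and the lists were set with earlier results of these data known. Genes averaging 1 TPM or more were fitted as log2(TPM + 1) with limma 3.58.1 in R 4.3.3 (FA against PBS, no covariate, variance trend, two-sided, Benjamini-Hochberg over all 15023 genes). The fit was checked on simulated data with independent noise for each gene and no tumour that stands apart. That check does not tell how large a difference would be missed here. Values in every tumour are given for members that average at least 10 TPM, have an unadjusted p under 0.05 or do not overlap between groups, and, outside this rule, for Lama3, Itga7 and Itgb8, chosen after their values were seen, and up to 4 genes of the smallest unadjusted p are named from each partner list. Symbols came from the table, and all 32 member identifiers were in GENCODE M21, where 2 share exonic bases with a same-strand gene and 8 with an opposite-strand gene only (Itga4, Itga7, Itga8, Itgav, Itgb4, Lama2, Lama3 and Lamc3), so their values may hold reads of those genes. Whether strand was used in counting is not given.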

Additional observations from a re-analysis of the deposited data

How the results depend on the processing

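By limma, the counts of 0 members higher and 0 lower in FA stayed at 0 under pseudocounts of 0.1 and 0.5, without the filter, with a mean of at least 5 TPM, after median-ratio rescaling, with array weights, without the variance trend, with the replicate number as a block, at an adjusted p under 0.1 and without each tumour in turn, and so did the partner lists where run. At an unadjusted p under 0.05, Itga1 was the single member in each of these but without FA replicate 1, where there were 6 (Itga1, Itga7, Itga9, Itgb3, Lama3 and Lamb3). Genes of any kind under this level also rose without FA replicate 1, to 615 of 15038 tested, against 192 of 15023 with all tumours. Over all genes, 2 were called higher without the filter, and leaving out 1 tumour gave 0 to 1 lower, the 1 being without FA replicate 3. The fit with the replicate block left 0 members called. Same-numbered tumours had deviations correlated at -0.208, 0.0533 and -0.0221, so the numbers were not taken as pairs.

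Members separated with FA higher numbered 1 after median-ratio rescaling (Itga1), beside 2.74% of all genes tested. Without 1 tumour they numbered 3 to 7, with 7 without FA replicate 1 and 4 without PBS replicate 2. With 3 tumours against 2, separation with FA higher was also more frequent over all genes tested, at 4.23% to 11.0%, against 2.48% with all tumours. It was 9.01% without FA replicate 1 and 5.90% without PBS replicate 2. Those separated with FA lower numbered 0 to 2, with 2 without PBS replicate 1 (Itgb5 and Lama5), beside 4.80% of all genes. The median coefficient of variation was 10.8% to 17.0%.

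The difference of Itga1 ranged from 0.27 to 0.31 without 1 tumour. Of 27 members 17 kept their sign in every setting. Array weights, whose estimation stopped short of its convergence tolerance, turned Itgb1 (-0.024), Itga5 (-0.050), Lama4 (-0.12), Itgb6 (-0.047), Itgb7 (-0.023) and Lamb2 (0.016). Leaving out 1 tumour turned 10, with ranges of -0.048 to 0.055 for Itgb1, -0.12 to 0.056 for Lamb1, -0.18 to 0.0079 for Lamc1, -0.10 to 0.032 for Itgav, -0.10 to 0.39 for Itga5, -0.057 to 0.045 for Lamb2, -0.18 to 0.27 for Lama4, -0.050 to 0.58 for Itgb2, -0.11 to 0.13 for Itgb6 and -0.090 to 0.51 for Itgb7. Of these, 9 turned without FA replicate 3 and the cause was not tested.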

Other observations

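Leukocyte integrin subunits whose symbols put them outside the members gave values for the partners of Itgb2 and Itgb7. Itgam, the complement receptor subunit of myeloid cells, stood at 15.7, 10.7 and 28.7 TPM with FA, against 18.2, 11.04 and 14.1 TPM with PBS. Itgax, a subunit of dendritic cells and macrophages, stood at 7.44, 10.23 and 14.74 TPM with FA, against 9.65, 8.26 and 7.76 TPM with PBS. Both were highest in FA replicate 3, as Itgb2 was, and their groups overlapped. Itgal, the lymphocyte partner of Itgb2, averaged 1.86 ± 0.694 TPM with FA, against 1.38 ± 0.28 TPM with PBS, and Itgae, the partner of Itgb7 on intraepithelial lymphocytes, 1.69 ± 0.275 and 1.32 ± 0.315 TPM. Itgb2l, a beta-type gene of the same list, was at 0.57 to 1.28 TPM with FA, against 0.88 to 1.51 TPM with PBS. Itgam, Itgax and Itgal also stand in the leukocyte marker list. Of the 6 genes in this list of subunits 5 were tested and 0 were called by limma, with 0 at an unadjusted p under 0.05.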
